A study of Mus musculus with 5 samples.

Results

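Retinoid metabolism and the chemerin axis were described here by 8 of the 31055 genes counted in 5 single-cell libraries of mouse hindlimb muscle mesenchymal cells. The genes were Rarres2 and Cmklr1 (chemerin and its signalling receptor), Stra6 (retinol uptake), Aldh1a1, Aldh1a2 and Aldh1a3 (retinaldehyde dehydrogenases), and Rarb and Rarg (retinoic acid receptors). They were chosen by their levels and their differences between these same libraries and clusters, which were known beforehand, so every level and difference between libraries is a description and carries no test. The cells came from Prx1Cre;mTmG mice on a C57Bl/6 background, in which limb mesenchyme that has expressed the Prx1-Cre driver, and its progeny, carry GFP, so cells outside that lineage were sampled only as carry-over of the sort. GFP+ cells were sorted from the muscle around the tibia, without periosteum or bone marrow, and the muscle of 2 mice was pooled for each library. The conditions were uninjured muscle (d0), muscle d3 and d5 after a non-stabilized tibial fracture, and muscle d3 and d5 after polytrauma, in which the fracture was combined with mechanical injury of the adjacent muscle. Each condition had 1 library, so no value below has a biological replicate, and all intervals cover counting error only.

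Retinol circulates bound to a carrier and can enter cells through the membrane receptor STRA6. Inside the cell it is oxidised to retinaldehyde and then, irreversibly, by the ALDH1A enzymes to retinoic acid, which binds nuclear receptors of the RAR family that pair with RXR on DNA. Chemerin, the protein made from Rarres2, was identified as a retinoid-responsive secreted factor, and it attracts leukocytes and acts on adipocytes through the receptor encoded by Cmklr1.

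The libraries held 5653 (d0), 6229 (d3 post-fracture), 2001 (d5 post-fracture), 6915 (d3 post-polytrauma) and 13641 (d5 post-polytrauma) barcodes, of which 4632, 5589, 1468, 6201 and 11941 cells passed the filters. Median depth per cell was 3640 unique molecular identifiers (UMIs) at d0 and 15688 to 34949 after injury. Shares of cells with a UMI were therefore also taken after drawing 2000 UMIs from each cell that had at least 2000. This thinning left out 744 of the 4632 cells at d0 and 30 to 424 cells in each injured library. The deposited labels of 2 libraries conflict with the study's cell numbers: the library used here as d5 post-fracture is labelled d3 post-polytrauma, and the one used as d3 post-polytrauma is labelled d5 post-fracture. Under the deposited labels every value given below for either of these conditions belongs to the other, while d0, d3 post-fracture and d5 post-polytrauma are untouched. The library used as d5 post-fracture shared 944 barcodes with d5 post-polytrauma and 0 with each of the other libraries. By contrast, d0, d3 post-fracture and d3 post-polytrauma shared 405 to 525 with each other. As the conditions are used here, every difference of d5 from d3 coincides with this grouping of libraries, and day and grouping cannot be told apart. GFP+ sorting left few other cell types. The summed level of 7 hematopoietic markers was 14.3 to 101 CPM (UMIs scaled to a total of 1000000) and that of 5 endothelial markers 3.64 to 48.7 CPM. The sum of 5 myogenic markers was 0.286 to 3.71 CPM, highest at d3 post-polytrauma. Of these, Pax7, Myf5 and Myod1, which mark muscle progenitors, were at 0 at d0. All 5 myogenic markers had UMIs in both polytrauma libraries, with 115 UMIs of Myod1 at d3. Dividing-cell markers summed to 6.65 CPM at d0 and 270.2 to 436 CPM after injury, and chondrocyte markers to 2610 CPM at d5 post-fracture against 80.2 to 288 CPM elsewhere.

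The 8 genes lie on 7 chromosomes of GRCm38 (GENCODE M21 annotation). Rarres2 (ENSMUSG00000009281) spans chr6:48569696-48572789 on the minus strand and Cmklr1 (ENSMUSG00000042190) chr5:113612354-113650426 on the minus strand. Aldh1a1 (ENSMUSG00000053279) spans chr19:20492715-20643465, Aldh1a2 (ENSMUSG00000013584) chr9:71215789-71296243 and Stra6 (ENSMUSG00000032327) chr9:58063788-58153996, all on the plus strand. Aldh1a3 (ENSMUSG00000015134) spans chr7:66390890-66427517, Rarb (ENSMUSG00000017491) chr14:16430839-16819156 and Rarg (ENSMUSG00000001288) chr15:102234938-102257517, all on the minus strand. Rarb, Stra6, Rarres2, Cmklr1 and Aldh1a1 overlap other annotated genes in these spans, and how the counting treated strand is not given in the sources used here.

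Retinoic acid receptors bind as dimers with RXR to direct repeats of a 6-base half-site, and the element upstream of Rarb is the textbook case of a receptor gene that its own ligand induces. The 250 bases before a Rarb start were read from the RefSeq promoter table (GRCm38.p6, chr14:16575477-16575726, minus strand, written 5′ to 3′). Capitals mark a direct repeat of 2 half-sites spaced by 5 bases.
Rarb upstream region: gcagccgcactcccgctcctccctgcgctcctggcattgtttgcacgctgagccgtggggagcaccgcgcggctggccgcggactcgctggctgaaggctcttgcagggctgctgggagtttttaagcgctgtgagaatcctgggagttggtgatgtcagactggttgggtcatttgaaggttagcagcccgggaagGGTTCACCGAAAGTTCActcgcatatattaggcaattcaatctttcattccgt
The element lies at chr14:16575513-16575529, from 53 to 37 bases before that start. On the minus strand this start lies inside the annotated gene span, whose outer end is chr14:16819156. Counts from 3′ sequencing do not show which start was used. Repeats of the half-site AGGTCA, in which the first base could also be G and the third also T, were searched on both strands with spacings of 1, 2 and 5 bases in 32851 windows of 27025 genes, each running from 250 bases before to 50 after a start. The spacing of 5 was found in 20 windows (0.0609%), that of 1 in 40 (0.122%) and that of 2 in 26 (0.0791%). Of the 11 windows of 6 of the 8 genes, and of 67 windows when the other listed retinoid and chemerin genes were included, the Rarb window was the only one with a match. No window was held for Rarres2 or Aldh1a3, and a match is a description of letters, not a measurement of binding.

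Chemerin mRNA was far higher in uninjured muscle than in any injured library. Rarres2 measured 693 CPM at d0 (95% Poisson interval 681 to 706), 34.9 CPM at d3 post-fracture (33.7 to 36.1), 62.1 CPM at d5 post-fracture (60.0 to 64.3), 140.2 CPM at d3 post-polytrauma (138 to 142) and 37.1 CPM at d5 post-polytrauma (36.2 to 37.9). The d0 library stood above all injured libraries, d3 post-polytrauma was second, and the low pair of d3 post-fracture and d5 post-polytrauma lay close together. Rarres2 was thus 19.9-fold lower at d3 post-fracture than at d0 (19.1 to 20.6), 1.78-fold higher at d5 than at d3 post-fracture (1.70 to 1.87), and 4.02-fold higher at d3 post-polytrauma than at d3 post-fracture (3.87 to 4.17). At d5 post-polytrauma it was 3.78-fold lower than at d3 post-polytrauma (3.68 to 3.89). Taken as the mean of CPM over single cells, the Rarres2 level at d3 post-fracture differed 1.90-fold from that of the library sum, and the log2 ratio of d3 post-fracture to d0 went from -4.31 to -3.41 and that of polytrauma to fracture at d3 from 2.01 to 1.46. Under the deposited labels the 4.02-fold difference would lie between d5 and d3 post-fracture, and the 3.78-fold difference between polytrauma and fracture at d5. The summed level of 5 FAP/MP markers (Prrx1, Cxcl12, Pdgfra, Ly6a and Cd34), which mark fibro-adipogenic and other mesenchymal progenitors, was also highest at d0, at 2331 CPM against 933 to 1592 CPM after injury, and its part in the Rarres2 levels was not tested. Cd34 (689 against 42.6 to 99.8 CPM), Ly6a (979 against 331 to 753 CPM) and Pdgfra (158 against 46.7 to 131 CPM) were higher at d0 than in every injured library. Prrx1 and Cxcl12, at 134 and 371 CPM at d0, were lower at d3 post-fracture (124 and 288 CPM) and higher at d3 post-polytrauma (182 and 535 CPM). At d5 they measured 256 and 458 CPM post-fracture and 275 and 306 CPM post-polytrauma. In a library sum, fewer cells of a type and less RNA per cell cannot be told apart.

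Among cells thinned to 2000 UMIs, 66.6% had Rarres2 at d0, 8.56% at d3 post-fracture, 11.1% at d5 post-fracture, 19.0% at d3 post-polytrauma and 5.19% at d5 post-polytrauma. The order of the libraries by this share matched the order by CPM except that d3 post-fracture and d5 post-polytrauma changed places. Without thinning the shares were 78.2%, 25.5%, 44.2%, 50.1% and 20.2%. Some clusters of the injured libraries were low in Rarres2, and not of 1 class only. Fibroblast-like clusters measured 20.9 CPM at d3 post-fracture, 4.01 and 61.9 CPM at d5 post-fracture and 8.55 CPM at d5 post-polytrauma. Chondrocyte-like cells at d5 post-polytrauma measured 2.15 CPM. At d5 post-fracture 2 of 295 thinned chondrocyte-like cells had a Rarres2 UMI (0.678%, median depth before thinning 46032 UMIs). Of the 295 cells, 191 form a cluster led by mitosis genes. At d3 post-polytrauma 0 of 74 thinned hematopoietic-like cells had one (median 3736 UMIs), with an exact upper bound of 4.86%. Thinning draws 2000 UMIs whatever the depth of a cell, so these shares do not measure free RNA, whose part was not tested. No cluster at d0 was comparably low, the lowest being at 183 CPM.

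**Figure D1:**
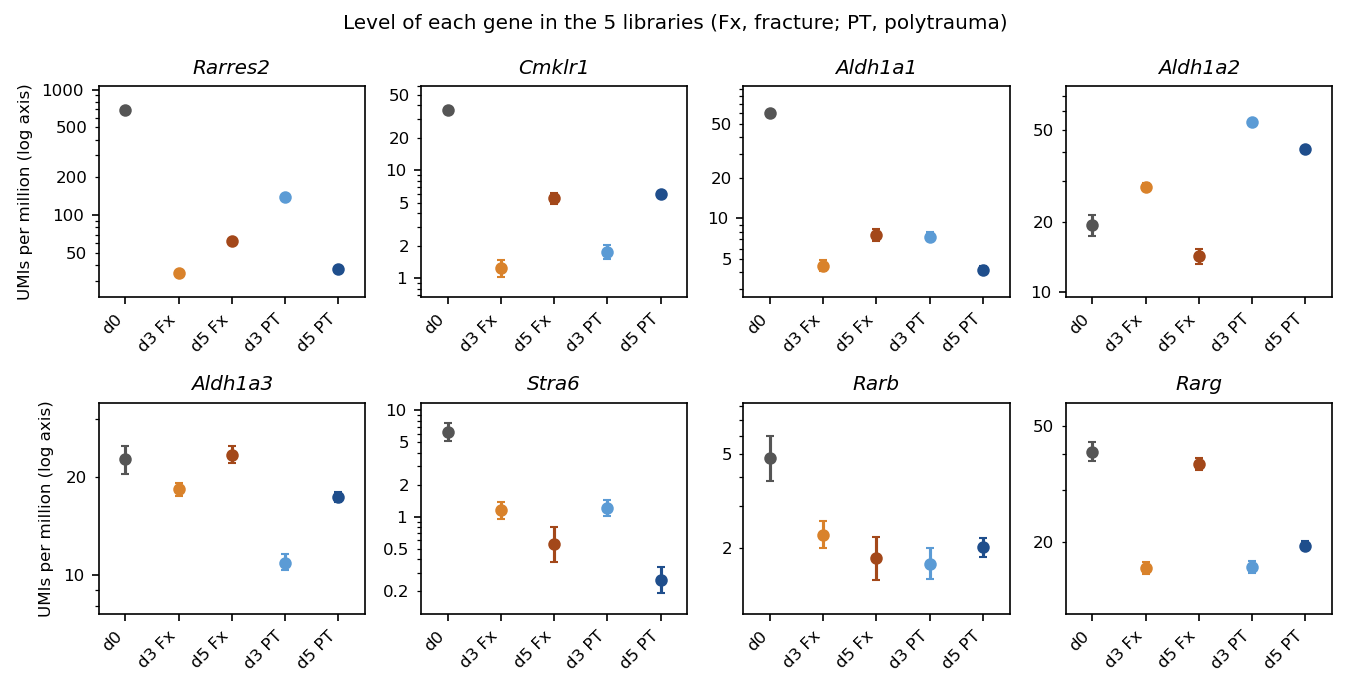
Level of each of the 8 genes in the 5 libraries, in CPM on a log axis. Each point is 1 library and each bar its 95% Poisson interval, so the spread between animals is not shown. Rarres2, Cmklr1 and Aldh1a1 stand highest at d0, whereas Aldh1a2 is highest at d3 post-polytrauma (53.8) and Aldh1a3 spans only 10.9 to 23.4.

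Clusters were made in each library alone, from variable genes that excluded the 8 genes, and named only where markers allowed. FAP/MP-like stands for clusters that met 3 to 5 of the progenitor markers above. A marker was met where enough cells had it and its level exceeded the mean of that library's other clusters. The names are thus relative to each library. A cluster could also stay unnamed where classes tied or where another class had more markers among its leading genes. At d0 Rarres2 was present in all 12 clusters, from 589 to 1311 CPM in the 6 FAP/MP-like ones. The highest of them held 269 cells and was led by Cmklr1 and Hsd11b1. Tenocyte-like clusters measured 491 and 577 CPM, the pericyte-like cluster 336 CPM and the 68 osteoblast-like cells 183 CPM. After injury no FAP/MP-like cluster reached the d0 range of Rarres2: they measured 159 and 225 CPM at d3 post-fracture, 193 and 265 CPM at d5 post-fracture, 142 and 503 CPM at d3 post-polytrauma, and 26.0 to 176 CPM at d5 post-polytrauma. These clusters differ in leading genes between libraries, so they are set side by side and not compared as a class.

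Rarres2 also differed between the injured libraries outside the clusters named FAP/MP-like. Clusters without that name may still hold progenitors, which was not tested. Over all cells of the library, progenitor markers had a UMI in 45.1% (Cd34) to 85.5% (Ly6a and Cxcl12) at d3 post-fracture. At d3 post-polytrauma the shares ran from 47.9% (Cd34) to 93.2% (Ly6a). In thinned cells Ly6a was found in 46.5% and 64.9%, against 57.5% at d0. At d3 post-fracture the clusters led by S-phase and mitosis genes had 16.3 and 13.3 CPM of Rarres2, and at d3 post-polytrauma the largest dividing cluster had 97.6 CPM. At d3 post-polytrauma every cluster other than the hematopoietic-like one measured at least 95.4 CPM. Pericyte-like cells measured 336 CPM (749 cells, d0), 229.6 CPM (48 cells, d3 post-fracture), 274 and 295 CPM (2 clusters of 19 cells each, d5 post-fracture), 440.0 CPM (55 cells, d3 post-polytrauma) and 146 CPM (98 cells, d5 post-polytrauma). At d3 post-fracture 67 further cells, unnamed but led like the d0 pericyte-like cluster by Myh11, Pln and Pcp4l1 among others, had 332 CPM, the highest Rarres2 level of that library. Their median depth was 3557 UMIs, 19.8% of the median of that library. Hematopoietic-like cells held 0 Rarres2 UMIs at d3 post-fracture (17 cells), 2 at d3 post-polytrauma (89 cells) and 2 at d5 post-polytrauma (29 cells), and chondrocyte-like clusters measured 2.15 to 7.56 CPM.

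**Figure D2:**
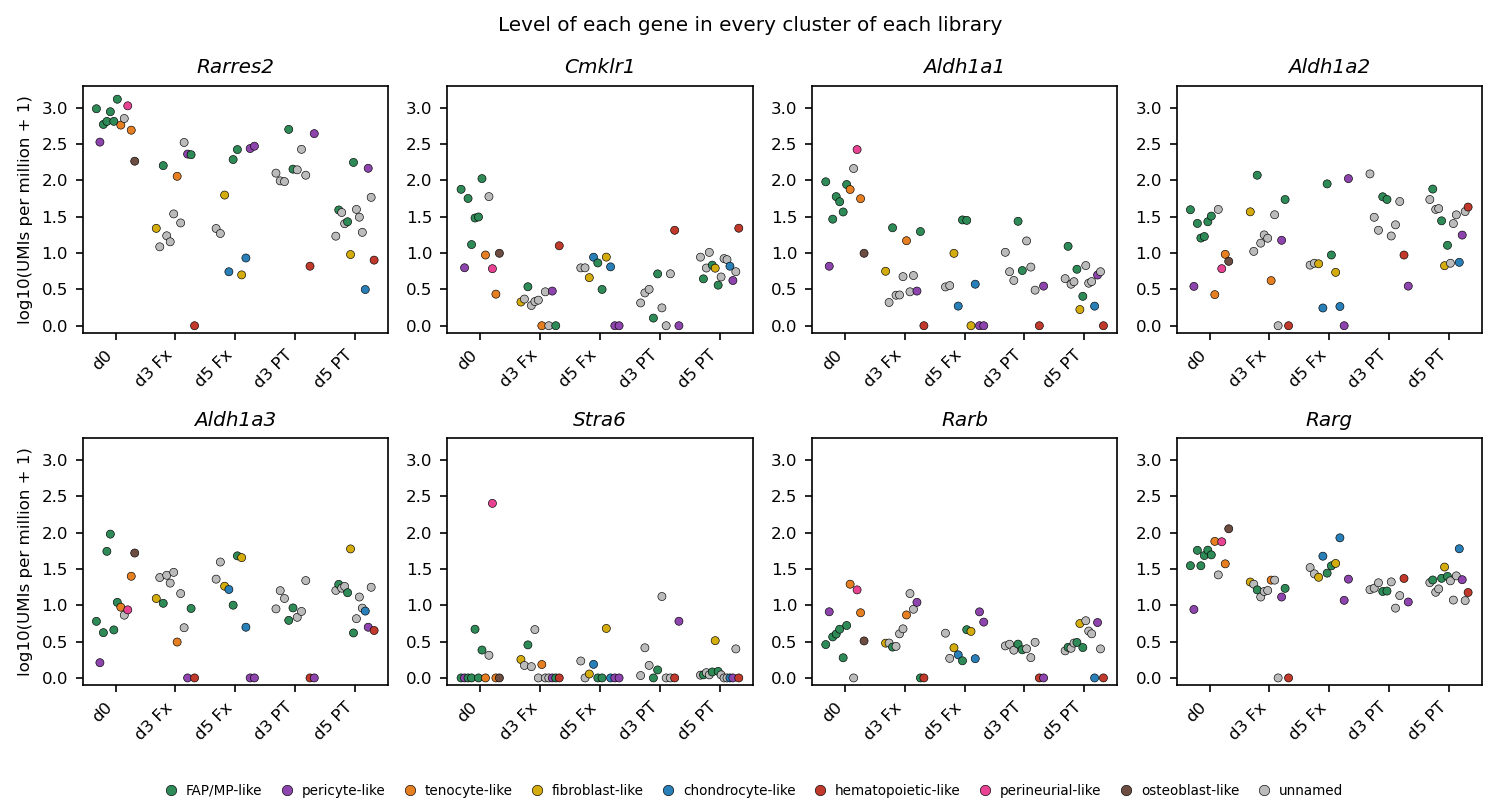
Level of each gene in every cluster of each library, as log10 of CPM plus 1. Each dot is 1 cluster, coloured by the class its markers gave (Fx, post-fracture; PT, post-polytrauma). Rarres2 is high in all d0 clusters, and a single d0 cluster carries Stra6 at 252 CPM.

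Cmklr1, the receptor through which chemerin signals, was also highest in uninjured muscle and was higher at d5 than at d3 after both injuries. It measured 36.0 CPM at d0 (33.3 to 38.9), 1.25 CPM at d3 post-fracture (1.04 to 1.49), 5.51 CPM at d5 post-fracture (4.89 to 6.19), 1.75 CPM at d3 post-polytrauma (1.51 to 2.03) and 6.10 CPM at d5 post-polytrauma (5.77 to 6.45). The d3 libraries were lowest and the d5 libraries came between them and d0. Cmklr1 was 28.8-fold lower at d3 post-fracture than at d0 (23.7 to 35.2), the widest difference among the 8 genes in that comparison. It was 4.41-fold higher at d5 than at d3 post-fracture (3.56 to 5.48) and 3.48-fold higher at d5 than at d3 post-polytrauma (2.98 to 4.09). The injuries differed less: 1.40-fold higher at d3 (1.11 to 1.77) and 1.11-fold higher at d5 (0.972 to 1.26) with polytrauma, where the latter interval includes no difference. Under the deposited labels these last ratios would instead be those of d5 against d3 post-fracture and post-polytrauma.

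In thinned cells Cmklr1 was found in 6.51% at d0, in 0.466% and 0.425% at d3 post-fracture and d3 post-polytrauma, and in 1.25% of both d5 libraries. At d0 the FAP/MP-like clusters ranged from 12.1 CPM to 105 CPM, with 74.5 CPM in the interferon gene-led cluster of 837 cells, whereas the pericyte-like cluster had 5.28 CPM and the tenocyte-like clusters 1.72 and 8.41 CPM. After injury the few hematopoietic-like cells held 11.6 CPM (1 UMI), 19.6 CPM (7 UMIs) and 21.0 CPM (6 UMIs) of Cmklr1, but these made up at most 3.87% of the gene's UMIs in those libraries. At d0, 73.5% of the 253 thinned cells with Cmklr1 also had Rarres2 (67.6 to 78.8), against 66.1% of the cells without Cmklr1. At d3 post-fracture it was 12.0% of 25 cells with Cmklr1 (2.55 to 31.2) against 8.54% of those without. At d5 post-fracture it was 5.56% of 18 cells (0.141 to 27.3) against 11.1%. At d3 post-polytrauma it was 7.69% of 26 cells (0.946 to 25.1) against 19.1%. Each of these intervals after injury includes the share without Cmklr1, so no direction can be read from them. At d5 post-polytrauma the share with Cmklr1 was 1.39% (0.169 to 4.93), or 2 of 144 cells, against 5.24%. The cells of a library are not replicates, so no direction is read from this share either. Among other chemerin-binding receptors, Ccrl2, which binds chemerin without signalling, measured 101 CPM at d0 and 0.737 to 2.47 CPM after injury, and 92.3% of its d0 UMIs lay in the pericyte-like cluster (506 CPM). At d3 post-fracture Ccrl2 was at 383 CPM in 67 cells of low depth (median 3557 UMIs) led by Pcp4l1 and Myh11, the latter a smooth muscle myosin. Pericyte markers summed to 594 CPM at d0 and 41.4 to 102 CPM after injury, and their part in the Ccrl2 level was not tested.

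Stra6, the retinol transporter, was scarce in every library and concentrated in few cells. It measured 6.31 CPM at d0 (110 UMIs), 1.16 CPM at d3 post-fracture (116 UMIs), 0.559 CPM at d5 post-fracture (29 UMIs), 1.21 CPM at d3 post-polytrauma (125 UMIs) and 0.257 CPM at d5 post-polytrauma (52 UMIs). The d0 level was above all others, and d5 post-polytrauma was the lowest. Stra6 was 5.44-fold lower at d3 post-fracture than at d0 (4.15 to 7.12), 2.08-fold lower at d5 than at d3 post-fracture (1.37 to 3.24), and 4.71-fold lower at d5 than at d3 post-polytrauma (3.38 to 6.64). A UMI was found in 49, 32, 9, 31 and 37 cells respectively. Unthinned, this was 0.613% of cells at d5 post-fracture, and none of the 1438 cells there held a Stra6 UMI once thinned, so the gene was not detectable in single cells at that depth. The intervals take UMIs as independent, yet a single cell at d3 post-fracture held 20 of them. For d5 against d3 post-fracture, Stra6 no longer passed 2-fold with the mean of per-cell CPM, with thinning or with 1 CPM added.

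At d0, 99 of the 110 Stra6 UMIs (90.0%) lay in 1 cluster of 140 cells, at 252 CPM (205 to 307), which was led by Stra6 itself, Sfrp5 and Gad1 and also held the highest Aldh1a1 level of any cluster, 265 CPM (217 to 321). This cluster met the perineurial markers Itgb4, Cldn1 and Slc2a1, but finer and coarser clustering both separated its cells into groups of 39 and 101. Only the 39 kept the perineurial name, with 45.5% of the d0 Stra6 UMIs, and the 101 fell in a FAP/MP-like cluster each time. With the coarser clustering that cluster held 320 cells, with Stra6 at 40.8 CPM. The 39 cells carried Itgb4 at 516 CPM and Slc2a1 at 1486 CPM, with Stra6 at 505 CPM and Aldh1a1 at 10.1 CPM (1 UMI). With the finer clustering, the 101 cells had no Itgb4 UMI and held Stra6 at 167 CPM and Aldh1a1 at 351 CPM. Stra6 was thus found in both groups of cells at d0, and Aldh1a1 almost wholly in the larger one. Aldh1a7, a close paralog of Aldh1a1 that was looked at after these values were seen, was at 86.7 CPM in the same 140 cells and at 2.24 CPM over the d0 library, and reads shared between the paralogs could not be separated here. After injury the highest Stra6 level was 12.2 CPM, in 254 cells led by the tendon genes Kera and Tnmd at d3 post-polytrauma. At d5 post-polytrauma 51.9% of its UMIs (27 UMIs) were in 598 fibroblast-like cells (2.26 CPM). That class held 55.8% with the finer clustering and 0% with the coarser one, where FAP/MP-like clusters held the largest share.

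**Figure D3:**
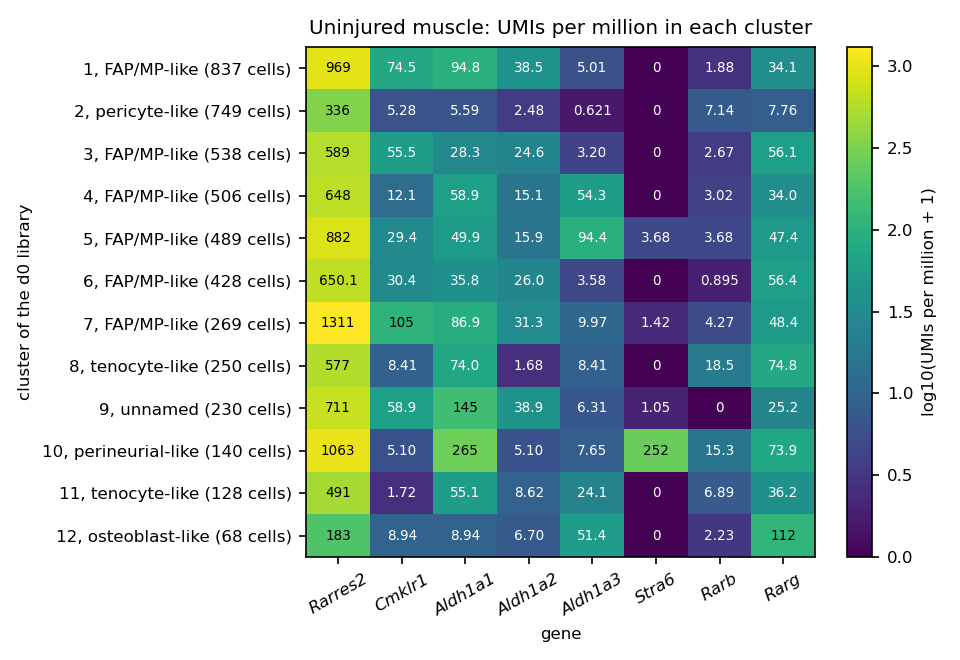
Levels of the 8 genes in the 12 clusters of uninjured muscle, with the CPM printed in each cell and log10 of the same plus 1 as its colour. Each row is 1 cluster with its class and each column a gene, and the 140-cell cluster is the one high in both Stra6 (252) and Aldh1a1 (265).

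The retinaldehyde dehydrogenases had different patterns. Aldh1a1 was highest at d0 with 59.7 CPM (56.1 to 63.4). It measured 4.47 CPM at d3 post-fracture (4.07 to 4.91) and 7.56 CPM at d5 post-fracture (6.83 to 8.34). After polytrauma it measured 7.35 CPM at d3 (6.83 to 7.89) and 4.19 CPM at d5 (3.92 to 4.49). All injured libraries were low, and d3 post-fracture and d5 post-polytrauma had overlapping intervals. The difference between d3 post-fracture and d0 was 13.3-fold (11.9 to 14.9). At d0 Aldh1a1 was highest, after the Stra6-led cluster, in 230 cells led by Saa1 and Dlk1 (145 CPM) and in the interferon gene-led FAP/MP-like cluster (94.8 CPM). After injury it was highest in FAP/MP-like clusters, at 21.3 CPM at d3 post-fracture, 27.6 and 27.2 CPM at d5 post-fracture, 26.4 CPM at d3 post-polytrauma and 11.4 CPM at d5 post-polytrauma.

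Aldh1a2, which makes most of the retinoic acid of the early embryo, was not highest at d0. It measured 19.3 CPM at d0 (17.3 to 21.4), 28.3 CPM at d3 post-fracture (27.2 to 29.3), 14.2 CPM at d5 post-fracture (13.2 to 15.3), 53.8 CPM at d3 post-polytrauma (52.4 to 55.2) and 41.3 CPM at d5 post-polytrauma (40.4 to 42.2). The polytrauma libraries were the highest at both times, and d5 post-fracture was the lowest of all. Aldh1a2 was 1.47-fold higher at d3 post-fracture than at d0 (1.31 to 1.65), 1.98-fold lower at d5 than at d3 post-fracture (1.83 to 2.15), and higher with polytrauma than with fracture, 1.90-fold at d3 (1.82 to 1.99) and 2.90-fold at d5 (2.69 to 3.13). Under the deposited labels Aldh1a2 would instead be higher at d5 than at d3 post-fracture (53.8 against 28.3 CPM) and lower with polytrauma than with fracture at d5 (41.3 against 53.8 CPM).

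Of the Aldh1a2 UMIs, 83.0% came from FAP/MP-like clusters at d0, 43.0% at d3 post-fracture and 71.2% at d5 post-fracture. These clusters held 66.2%, 17.6% and 21.9% of the cells. Unnamed clusters gave 85.5% of the UMIs at d3 and 69.0% at d5 post-polytrauma, and held 76.0% and 64.0% of the cells. With the coarser and finer clustering the unnamed share of UMIs was 91.3% and 62.2% at d3 post-polytrauma. At d5 post-polytrauma it was 40.8% and 48.1%. After injury its level reached 117 CPM in 947 FAP/MP-like cells at d3 post-fracture (42.3% of its UMIs), 88.7 CPM in 182 FAP/MP-like cells at d5 post-fracture (66.4%; 19 pericyte-like cells there had 105 CPM), and 75.1 CPM in 2145 FAP/MP-like cells at d5 post-polytrauma (26.3%). At d3 post-polytrauma 55.9% of its UMIs lay in 1725 cells at 122 CPM, a cluster left unnamed and led by Hsd11b1, Mme and Aldh1a2. Mme was also a leading gene of the d0 FAP/MP-like cluster of 837 cells, and Hsd11b1 of that of 269 cells. Whether the 1725 cells are progenitors was not tested. At d0 no cluster exceeded 38.9 CPM. In thinned cells Aldh1a2 was found in 3.27% (d0), 5.37% (d3 post-fracture), 2.64% (d5 post-fracture), 9.94% (d3 post-polytrauma) and 6.55% (d5 post-polytrauma).

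Aldh1a3, the isoenzyme known for roles in eye and nasal development, varied least of the enzymes, at 22.6 CPM at d0 (20.4 to 24.9), 18.4 CPM at d3 post-fracture (17.5 to 19.2), 23.4 CPM at d5 post-fracture (22.1 to 24.8), 10.9 CPM at d3 post-polytrauma (10.3 to 11.6) and 17.3 CPM at d5 post-polytrauma (16.7 to 17.9). The intervals of d0 and d5 post-fracture overlapped, and d3 post-polytrauma was lowest, 1.68-fold below d3 post-fracture (1.56 to 1.81). Its highest clusters were other ones than those of Aldh1a2. At d0 it reached 94.4 CPM in 489 FAP/MP-like cells led by Stmn4 and Il18, which held 58.6% of its UMIs, and at d5 post-polytrauma 58.7 CPM in 598 fibroblast-like cells led by Anxa8 and Bmp2. At this sparse depth 6 to 44 thinned cells per library had UMIs of 2 of the enzymes. Aldh1a2 was found in 5.66% of thinned d0 cells with Aldh1a1 (3.66 to 8.31) and 2.97% of those without it. At d3 post-fracture the shares were 14.6% (7.80 to 24.2) and 5.23%. Post-polytrauma they were 14.8% (9.18 to 22.2) and 9.83% at d3, and 8.11% (3.77 to 14.8) and 6.53% at d5. Both polytrauma intervals include the share without Aldh1a1. With and without Aldh1a3, Aldh1a2 was found in 0.758% and 3.35% at d0, 2.65% and 5.45% at d3 post-fracture, and 11.9% and 9.90% at d3 post-polytrauma.

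Rarg, a retinoic acid receptor known from skin and cartilage, was highest at d0 and d5 post-fracture. It measured 40.7 CPM at d0 (37.8 to 43.8), 16.3 CPM at d3 post-fracture (15.5 to 17.1), 37.0 CPM at d5 post-fracture (35.3 to 38.7), 16.4 CPM at d3 post-polytrauma (15.6 to 17.2) and 19.4 CPM at d5 post-polytrauma (18.8 to 20.1). Uninjured muscle and d5 post-fracture were high with overlapping intervals, and the d3 libraries did not differ beyond counting error (1.01-fold, 0.940 to 1.08). Rarg was 2.50-fold lower at d3 post-fracture than at d0 (2.29 to 2.74), 2.27-fold higher at d5 than at d3 post-fracture (2.13 to 2.43) and 1.90-fold lower with polytrauma than with fracture at d5 (1.80 to 2.01). By cluster, Rarg measured 112 CPM in osteoblast-like cells, 74.8 and 36.2 CPM in the tenocyte-like clusters, 73.9 CPM in the Stra6-led cluster and 34.0 to 56.4 CPM in FAP/MP-like clusters at d0. At d5 the highest levels were 83.8 CPM in the chondrocyte-like cluster led by Hapln1 and Col2a1 at d5 post-fracture, and 59.0 CPM in chondrocyte-like cells at d5 post-polytrauma. The d0 pericyte-like cluster had 7.76 CPM.

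Rarb, the receptor whose upstream element is shown above, gave few UMIs, from 84 to 406 per library. It measured 4.82 CPM at d0 (3.84 to 5.96), 2.27 CPM at d3 post-fracture (1.99 to 2.59), 1.81 CPM at d5 post-fracture (1.46 to 2.22), 1.71 CPM at d3 post-polytrauma (1.47 to 1.99) and 2.01 CPM at d5 post-polytrauma (1.82 to 2.21). Uninjured muscle was highest, 2.12-fold above d3 post-fracture (1.63 to 2.74), and the d5 post-fracture interval overlapped that of every other injured library. Its d0 maximum was 18.5 CPM (22 UMIs) in 250 tenocyte-like cells led by Wif1 and Matn3. In thinned cells Rarb was detected in 0.823% at d0 and 0.343% to 0.485% after injury.

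A ratio of at least 2 in library CPM was counted as past the limit, among genes with a mean of at least 1 CPM, and all 8 genes met that minimum. At d3 post-fracture against d0, 6 of the 8 were lower (Rarres2, Cmklr1, Aldh1a1, Stra6, Rarb, Rarg) and 0 were higher, where 30.3% of 12383 genes were lower and 12.5% higher. Their median log2 ratio was -1.88 against -0.39 for all genes. Since the genes were chosen with such ratios known, nothing is read from these counts. Scaling by the median of ratios moved the all-gene median to 0.19 and the shares to 18.1% lower and 24.0% higher. On that scale Aldh1a2 passed the limit upwards (1.13), Aldh1a3 changed sign from -0.30 to 0.28, and Rarb (-0.51) and Rarg (-0.74) no longer passed it.

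At d5 against d3 post-fracture, Cmklr1 and Rarg were higher and Stra6 lower by at least 2-fold, where 37.8% of 12388 genes were higher and 4.46% lower. The all-gene median log2 ratio was 0.67, so the 1.78-fold of Rarres2 (0.83) and the 1.69-fold of Aldh1a1 (0.76) were close to the shift of a typical gene. With median-of-ratios scaling the median was -0.07, the shares were 15.8% higher and 19.6% lower, Rarres2 and Aldh1a1 came to 0.10 and 0.02, and Aldh1a3 changed sign from 0.35 to -0.38. On that scale Rarg (0.45) no longer passed the limit, and Aldh1a2 (-1.72) and Rarb (-1.06) passed it downwards. Between the injuries at d3, Rarres2 alone was past the limit, higher with polytrauma, where 2.68% of genes were higher and 2.48% lower.

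At d5, polytrauma against fracture had Aldh1a2 higher and Stra6 lower, where 1.91% of genes were higher and 10.4% lower (3.58% and 8.04% with median-of-ratios scaling, where Stra6 at -0.92 no longer passed). From d3 to d5 post-polytrauma Cmklr1 was higher and Rarres2 and Stra6 lower, where 27.6% of 12386 genes were higher and 4.52% lower. With median-of-ratios scaling these shares were 13.3% and 9.89%, Aldh1a1 also passed the limit downwards (-1.30), and the small ratios of Rarb and Rarg changed sign, from 0.23 to -0.26 and from 0.25 to -0.24. Comparisons that use the same library are not independent of each other.

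**Figure D4:**
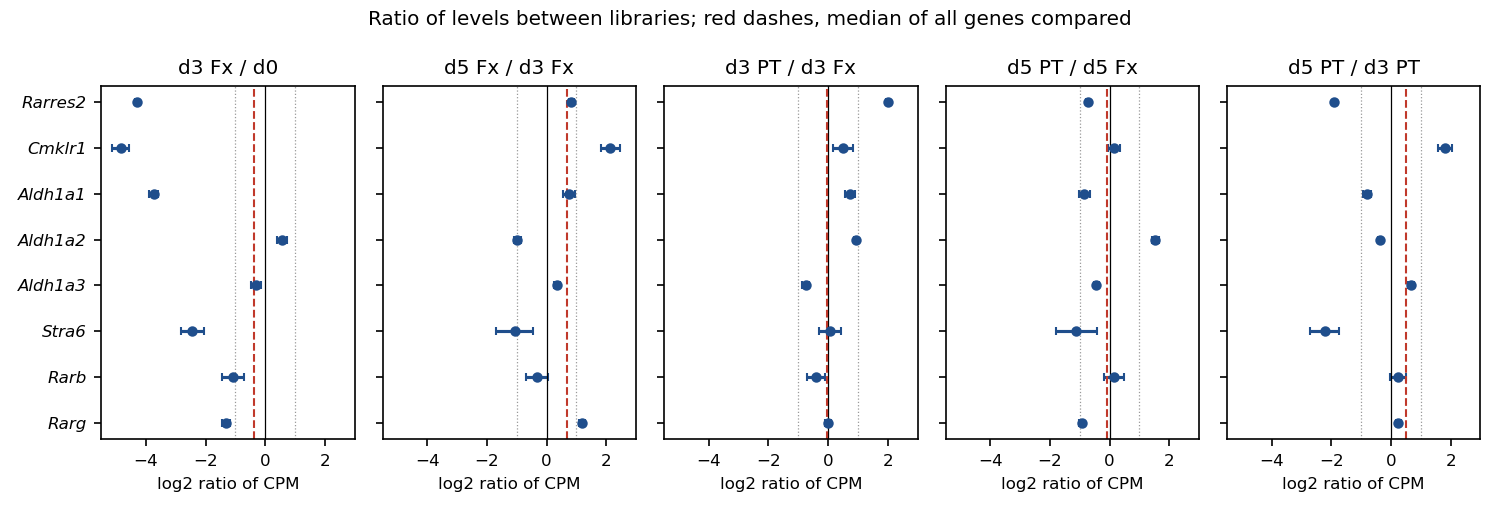
Log2 ratio of library levels for the 8 genes in each of 5 comparisons. Points are ratios with exact intervals for counting error, dotted lines mark a 2-fold ratio either way and the red dash the median of all genes (-0.39, 0.67, -0.03, -0.07 and 0.50). At d3 post-fracture against d0, 6 genes lie below the lower dotted line, of which Rarb and Rarg cross back over it, and Aldh1a3 changes sign, with median-of-ratios scaling.

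Of 50 other retinoid and chemerin genes listed, 37 had a mean of at least 1 CPM. At d3 post-fracture 4 of them were at least 2-fold higher than at d0 and 15 lower, with a median log2 ratio of -0.74, where 12.5% of all genes were higher and 30.3% lower. Those higher included Rbp4, the secreted retinol carrier (from 29.2 to 64.6 CPM), and the intracellular binding proteins Crabp2 (from 18.8 to 65.7 CPM) and Fabp5 (from 11.3 to 659 CPM). FABP5 also binds fatty acids. Those lower included Adh1, an alcohol dehydrogenase that oxidises retinol (from 50.8 to 14.3 CPM), Cyp26b1, which degrades retinoic acid (from 20.9 to 9.11 CPM), the receptor Rara (from 21.3 to 8.43 CPM) and the retinoid-responsive transglutaminase Tgm2 (from 89.2 to 8.44 CPM). All 7 of these genes kept their direction with median-of-ratios scaling, although Cyp26b1 and Rara then differed by less than 2-fold.

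At d5 against d3 post-fracture 15 of the 37 were higher and 1 lower (median 0.78), and at d5 against d3 post-polytrauma 13 were higher and 3 lower (median 0.64). All genes had medians of 0.67 and 0.50, with 37.8% higher and 4.46% lower in the former and 27.6% and 4.52% in the latter. Cyp26b1 was among the higher ones both times, at 39.2 CPM at d5 post-fracture and, from 13.1 CPM, at 27.2 CPM at d5 post-polytrauma. Polytrauma against fracture gave 2 higher and 5 lower at d3 (median -0.03) and 2 higher and 6 lower at d5 (median -0.32), where 2.68% and 2.48% of all genes at d3, and 1.91% and 10.4% at d5, were higher and lower. Crabp1, another retinoic acid binding protein, differed between the injuries at both times, with 14.0 and 4.90 CPM at d3 and d5 post-fracture and 84.3 and 78.0 CPM at d3 and d5 post-polytrauma. Under the deposited labels the same values would divide d3 (14.0 and 4.90 CPM) from d5 (84.3 and 78.0 CPM). Rdh10, the main retinol dehydrogenase of development, stayed between 30.4 and 57.3 CPM.

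**Figure D5:**
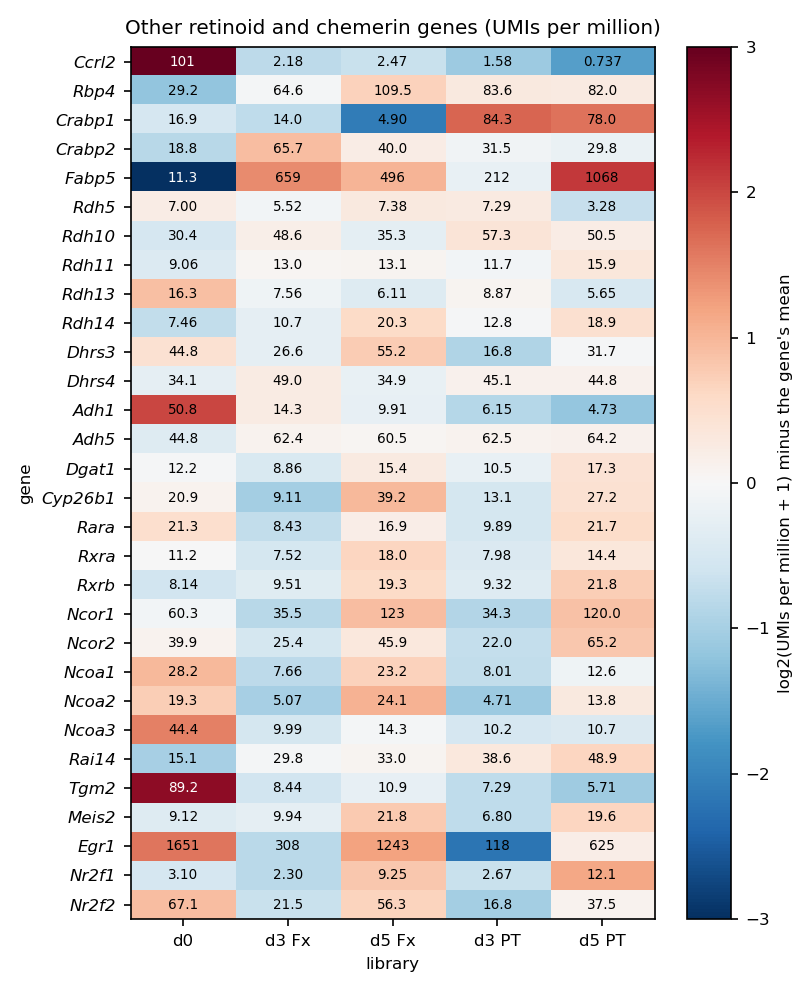
Levels in CPM of 30 other retinoid and chemerin genes with a mean of at least 5 in the 5 libraries. Each row is a gene and each column a library (Fx, post-fracture; PT, post-polytrauma), and the colour is log2 of the printed level plus 1 relative to the gene's mean. Fabp5 (11.3 at d0, 659 at d3 post-fracture) and Ccrl2 (101 at d0, 2.18 at d3 post-fracture) differ widely between d0 and d3 post-fracture.

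Across 52 cluster sums of at least 50 cells, the genes whose level ran most like Rarres2 were Gstm1, Cyb5a and Axl (Pearson r of log2 CPM plus 1: 0.90, 0.87 and 0.85). For Aldh1a1 they were Myoc, Abca8a and Lama2 (0.90, 0.88, 0.87), for Cmklr1 Ddhd1, Sp2 and Lmo2 (0.75, 0.75, 0.74), and for Aldh1a2 Ms4a4d, Cxcl12 and Ly6e (0.74, 0.71, 0.70). Rarg ran most like Tmem60, Aff3 and Inpp1 (0.81, 0.79, 0.78), and no gene exceeded 0.63 for Aldh1a3 or Stra6. Among the 8 genes, Rarres2 and Aldh1a1 ran together (0.83) but Rarres2 and Cmklr1 hardly did (0.21), and the retinaldehyde dehydrogenases were nearly unrelated to each other (-0.00 to 0.19). These sums share libraries and depth, so r is a description across clusters; Rarb was below the minimum of 5 CPM over the sums.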

How the data were processed

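Sorted GFP+ cells were profiled by 10x Genomics 3′ sequencing. The authors deposited raw UMI counts per gene and barcode for each library, made with Cell Ranger (3.1.0 in the matrix headers) on mm10; the submitters' notes also name Seurat 3.1.2. Cells with 350 to 8000 genes, under 20% mitochondrial UMIs and at least 1000 UMIs were kept, and possible doublets were kept too. Counts were summed per library (17437190 to 202233564 UMIs) and scaled to a total of 1000000 (CPM). Intervals at 95% were exact: Poisson for levels, conditional binomial for ratios, Clopper-Pearson for shares. A ratio of at least 2 was counted among genes with a mean of at least 1 CPM. Where 1 library of a pair was at 0, a floor of 3 UMIs was used. No test was run, since each condition had 1 library.

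Each library was clustered alone (2000 variable genes without the genes described and the naming markers, 20 principal components, Leiden resolution 0.5). Genes named were the 8, listed genes with a mean of at least 5 CPM, the 3 most alike per gene, and leading genes of clusters where one of the 8 was highest; Aldh1a7 was added after seeing values, and 1 listed gene is not reported here. The 8 genes and the lists were chosen with earlier results of these data known. Positions came from GENCODE M21, which held 30934 of 31055 gene IDs (99.6%), and promoters from RefSeq (GRCm38.p6). Python 3.11.15, numpy 2.4.6, scipy 1.17.1, pandas 2.3.3, igraph 0.11.9 and matplotlib 3.10.9 were used, and scripts were tested on simulated data. Alternatives covered cell filters, shared barcodes, possible doublets, thinning, scaling, pseudocount, the low-value filter, clustering resolution and the deposited labels.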

Additional observations from a re-analysis of the deposited data

Results flagged for a closer look

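Rarres2 and Aldh1a1 moved in opposite directions from d3 to d5 after the 2 injuries. The log2 ratio of d5 to d3 was 0.83 for Rarres2 post-fracture and -1.92 post-polytrauma, and for Aldh1a1 it was 0.76 and -0.81. With 1 library per condition the difference was not tested, and with median-of-ratios scaling the post-fracture ratios were 0.10 and 0.02. Both rest on the libraries whose labels are in doubt, and under the deposited labels the ratios would be 2.01 and -0.74 for Rarres2 and 0.72 and -0.85 for Aldh1a1.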

How the results depend on the processing

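Of 360 recomputed log2 ratios of the 8 genes, 248 lay inside the counting interval of the reported value, and of 135 belonging to a ratio past 2-fold, 113 stayed past it in the same direction. Under the deposited labels of the doubtful libraries the number of genes past 2-fold went from 3 to 1 (Rarres2) for d5 against d3 post-fracture and from 1 to 3 (Cmklr1, Rarg, Stra6) for polytrauma against fracture at d3. The log2 ratio of Stra6 turned to 0.06 in the former, and that of Aldh1a2 for polytrauma against fracture at d5 turned to -0.38. With 2000 UMIs drawn from each cell those counts were 1 (Cmklr1) and 2 (Rarres2, Stra6). For polytrauma against fracture at d5 the count went from 2 to 1 (Aldh1a2) with under 10% mitochondrial UMIs, with median-of-ratios scaling, with 1 CPM added and with a minimum mean of 5 CPM. In that comparison Rarres2 also passed, lower with polytrauma, with the mean of per-cell CPM and with thinning. Under the deposited labels Rarres2 (lower) and Cmklr1 (higher) passed there, and Aldh1a2 did not. For d3 post-fracture against d0 the count stayed between 4 and 6, and Rarb no longer passed with under 10% mitochondrial UMIs, with thinning, with the mean of per-cell CPM, with 1 CPM added or with median-of-ratios scaling. The causes were not tested. Levels stayed within 1.5-fold in all 40 gene-by-library values under each cell filter, in 37 with the mean of per-cell CPM and in 35 after thinning. The class of clusters holding most of a gene's UMIs was unchanged in 28 of 40 gene-by-library pairs at resolution 0.3, in 32 at resolution 1.0 and in 29 without the minimum of 1000 UMIs. Rarres2 at d3 post-fracture went from FAP/MP-like to unnamed at both resolutions, and Aldh1a2 at d3 post-fracture did so at 1.0. At d5 post-polytrauma Rarres2 and Aldh1a1 went from unnamed to FAP/MP-like at both resolutions and without the minimum. Aldh1a2 at d5 post-polytrauma did so at 0.3 and without the minimum. Rarg at d5 post-fracture went from chondrocyte-like to fibroblast-like at 0.3 and without the minimum. Stra6 at d0 went from perineurial-like to FAP/MP-like at both resolutions and without the minimum, and at d5 post-polytrauma from fibroblast-like to FAP/MP-like at 0.3. Stra6 and Rarb are limited by depth, with 29 and 94 UMIs at d5 post-fracture. No paired analysis was possible because each condition had 1 library.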
